A study of Nothobranchius furzeri with 20 samples.

Results

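The age-falling genes whose largest drop lies between 7 and 10 weeks were described in brains of male turquoise killifish. A list of 418 genes was chosen by their measured read counts, out of 26739 gene identifiers and out of 17994 with a mean of at least 1 CPM (a count scaled to the total of its library) over the 20 libraries. A member had to have every 14-week library below every 5-week library, and the largest of its 3 falls between successive age means of log2(CPM + 0.5) had to be the one from 7 to 10 weeks. Of the 653 age-falling genes, 418 had their largest fall there, against 201 between 5 and 7 weeks and 34 between 10 and 14 weeks. All 20 libraries and all 4 ages took part in this choice, so levels, age differences and calls of the members are given as a description of the list, and nothing is supported with them.

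The fish were males of the GRZ strain of Nothobranchius furzeri, aged 5, 7, 10 or 14 weeks, and RNA of the whole brain was sequenced in 5 libraries per age. Pooling of brains is not mentioned in the labels, so p-values measure the spread between these libraries, which may be technical. No group carries a treatment or a mutation. The turquoise killifish is an annual fish of seasonal ponds in southern Africa, and GRZ is a laboratory strain with a very short life. Its brain is known to lose adult neurogenesis and to develop gliosis within that short life, which is why it serves as a model of vertebrate brain ageing. In such bulk samples, fewer cells of a type and less RNA per cell cannot be told apart.

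The files do not pair the identifiers with gene names, and the RefSeq gene table of NfurGRZ-RIMD1 holds 0 of the 26739. No member can therefore be given a symbol, a role, a position or a sequence here, and the labelled tissue was not checked against marker genes. Only 2 members are printed by identifier, the one with the largest fall from 7 to 10 weeks and the one with the most reads. Others are described by their place in these orders.

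Library totals ran from 12004412 counts in 5-week replicate 5 to 30723528 counts in 7-week replicate 4. Across genes of at least 1 CPM, 7-week replicate 3 had the lowest median Spearman rho with the other libraries (0.911), followed by 5-week replicate 4 (0.946) and 5-week replicate 5 (0.949). The other 17 libraries had 0.967 to 0.984. Several results that rest on 7-week replicate 3 are given with and without it, and others only with it.

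The members were high at 5 weeks and, apart from replicate 3, somewhat lower at 7 weeks. They were low at 10 weeks and stayed near that level at 14 weeks. Together they held 3.70%, 3.61%, 3.75%, 3.91% and 3.73% of all counts in 5-week replicates 1 to 5. At 7 weeks the share was 3.29%, 3.54%, 4.43%, 3.29% and 3.02% in replicates 1 to 5. It was 2.76%, 2.73%, 2.42%, 2.58% and 2.96% in the 10-week libraries, and 2.74%, 2.88%, 2.76%, 2.62% and 2.93% in the 14-week libraries. Thus the share in each library of 10 and 14 weeks lay under that in each library of 5 and 7 weeks, and the nearest libraries were 10-week replicate 5 and 7-week replicate 5. Mean shares were 3.74% ± 0.109 (5 weeks), 3.51% ± 0.543 (7 weeks), 2.69% ± 0.201 (10 weeks) and 2.78% ± 0.125 (14 weeks; SD, n = 5 each). The 7-week mean includes replicate 3, at 4.43%, and every other 7-week share lay under every 5-week share.

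Each gene was also set against its own mean over the 4 ages, on the log2(CPM + 0.5) scale, which gives every member the same weight. The median member then lay at 0.18 to 0.32 in the 5-week libraries and at -0.05 to 0.51 in those of 7 weeks. In the 10-week libraries it lay at -0.36 to -0.08, and in the 14-week ones at -0.28 to -0.08. The same median over all genes of at least 1 CPM lay between -0.07 and 0.17 in every library. It was highest in 5-week replicate 5, at 0.17, where the member median was 0.32. The highest member median was that of 7-week replicate 3, at 0.51, where all genes stood at -0.04.

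**Figure D1:**
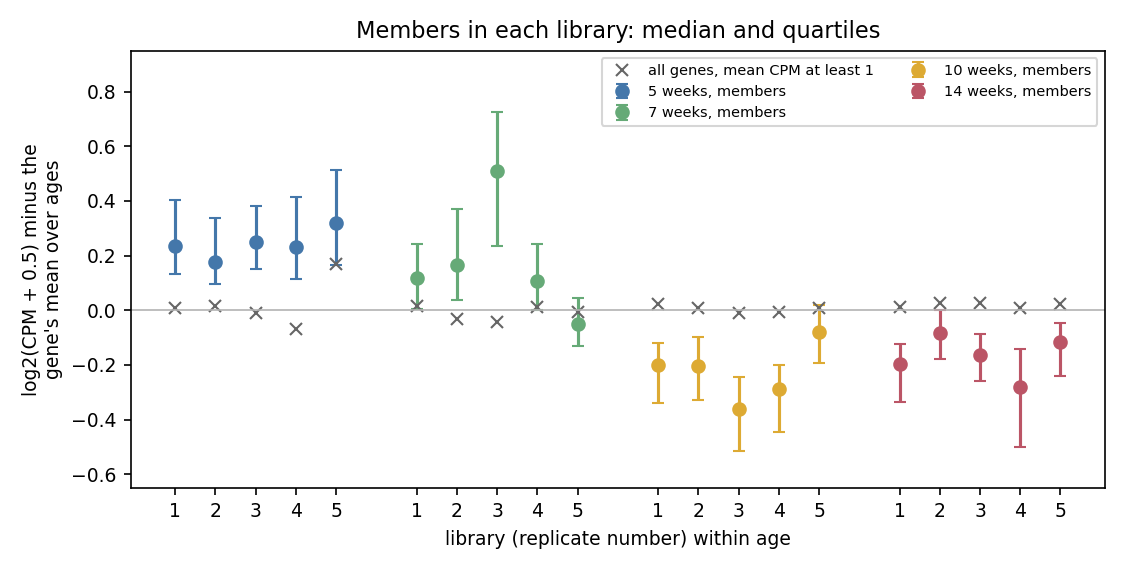
Median (point) and quartiles (bars) over the 418 members of log2(CPM + 0.5) minus the gene's mean over the 4 ages, for each library by age and replicate number, with the median over all 17994 genes of at least 1 CPM as crosses. The medians of the 10- and 14-week libraries lie between -0.36 and -0.08, and 7-week replicate 3 stands at 0.51 among 7-week medians that otherwise run from -0.05 to 0.17.

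The sizes of the 3 steps show the course that the rule asked for. Between 7 and 10 weeks the median difference of age means over the members was -0.39 on the log2 scale (10 minus 7 weeks), a median ratio of 0.764, against 0.04 over all genes of at least 1 CPM. Quartiles were -0.56 and -0.29, and the range was -2.03 to -0.08. Between 5 and 7 weeks the median difference was -0.11 (7 minus 5 weeks), against -0.04 over all genes. From 10 to 14 weeks it was 0.06 (14 minus 10 weeks), against 0.02 over all genes.

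The step from 7 to 10 weeks accounted for a median of 89.1% of the difference between 14 and 5 weeks, and in 151 members it exceeded that difference. The lowest age mean was at 10 weeks in 308 members and at 14 weeks in 110. The highest was at 5 weeks in 328 members and at 7 weeks in 90. A lower mean at each of the 3 steps was seen in 74. The step was moderate for most members, and 22 lay beyond 2-fold, 132 beyond 0.5 on the log2 scale and 66 under 0.25. Members with fewer reads had the larger steps. The median step was -0.65 in the 92 members under 10 CPM and -0.37 in the 244 members of 10 to 100 CPM. It was -0.32 in the 82 members above 100 CPM. In the same order the median difference between 14 and 5 weeks was -0.78, -0.37 and -0.37. The rule used both differences, and a gene whose libraries scatter more needs a larger difference to meet it. Larger steps among members with few reads can therefore come with the choice itself. This was not tested, and all genes were not split by reads. The values of this paragraph include 7-week replicate 3 and were not taken without it.

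**Figure D2:**
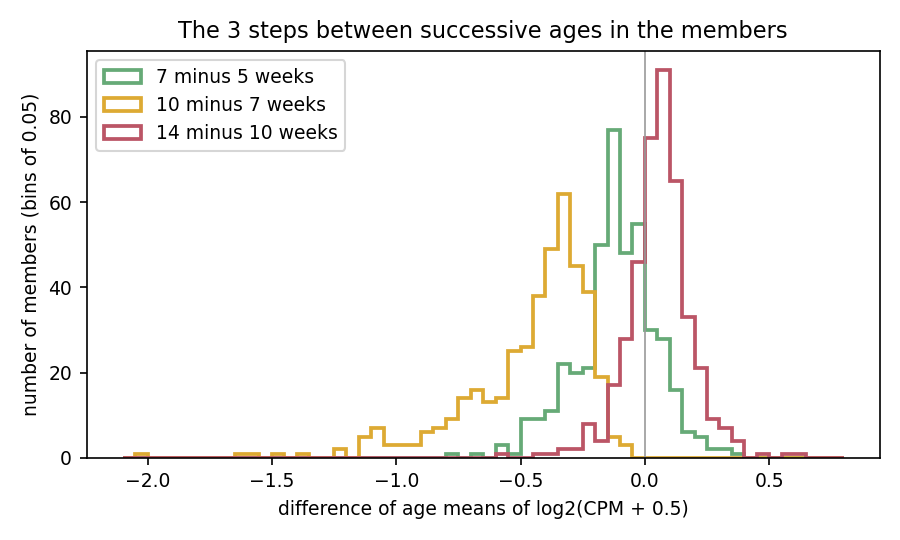
Number of members (bins of 0.05) by the difference of successive age means of log2(CPM + 0.5), for 7 minus 5, 10 minus 7 and 14 minus 10 weeks. The median steps were -0.11, -0.39 and 0.06, and no member lies above 0 in the step from 7 to 10 weeks because the rule chose that fall.

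Several members lay close to the limits of the rule. The lowest mean among members was 1.045 CPM, and the highest among genes that met the other conditions but not the minimum was 0.976 CPM. The lowest 5-week library exceeded the highest 14-week library by a median ratio of 1.07. At the limit the libraries were all but equal on both sides, and the widest ratio was 18.5. The fall from 7 to 10 weeks led the next largest step by 0.27 (log2) in the median member. In 70 members the lead was under 0.1, and in the closest it was 0.0033. The closest gene outside fell short by 0.0012.

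The largest fall from 7 to 10 weeks belonged to Nfu_g_1_022937, a gene of 432 bases. It had 4.95, 3.76, 0.975, 1.14 and 1.17 CPM in 5-week replicates 1 to 5, and 2.45, 1.23, 6.66, 1.46 and 1.595 CPM in the 7-week replicates. At 10 weeks it had 0.254, 0.127, 0.115, 0.419 and 0 CPM, and at 14 weeks 0.0447, 0, 0.0528, 0.0433 and 0 CPM. The groups of 10 and 14 weeks did not overlap with those of 5 and 7 weeks, and the young libraries were themselves uneven, with 5-week replicates 1 and 2 and 7-week replicate 3 above the rest. Over the 5 libraries it had 21 counts at 10 weeks and 320 at 7 weeks. Scaled to the library totals, the ratio was 0.0770, with an exact 95% interval of 0.0470 to 0.120 that covers counting error only. At 14 weeks 3 counts remained in all, against 241 at 5 weeks. The fitted log2 fold change for 10 against 7 weeks was -3.78 ± 0.68 (SE, edgeR), and it was -3.12 without 7-week replicate 3.

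Most reads fell on Nfu_g_1_016838, a gene of 2147 bases. It had 2807, 2638, 2465, 3207 and 2805 CPM in 5-week replicates 1 to 5 and 2127, 2616, 3609, 2268 and 2152 CPM in the 7-week replicates. At 10 weeks it had 2321, 2187, 1772, 2065 and 2189 CPM, and at 14 weeks 2162, 2208, 2058, 2050 and 2390 CPM. Libraries of 10 and 7 weeks overlapped, since 10-week replicates 1, 2 and 5 lay above 7-week replicate 1. The fitted log2 fold changes were -0.28 ± 0.14 for 10 against 7 weeks and -0.35 ± 0.14 for 14 against 5 weeks (SE, edgeR), and neither was called. Without 7-week replicate 3 they were -0.13 and -0.36, and the second was then called (edgeR adjusted p = 0.041). For 7 against 5 weeks the fitted change was -0.09 with that library and -0.26 without it. Without that library the fitted fall of this gene was thus larger from 5 to 7 weeks than from 7 to 10 weeks. Per kilobase of gene length it averaged 1120 CPM, the second level among members, below 2406 CPM per kilobase in a member of 399 bases.

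**Figure D3:**
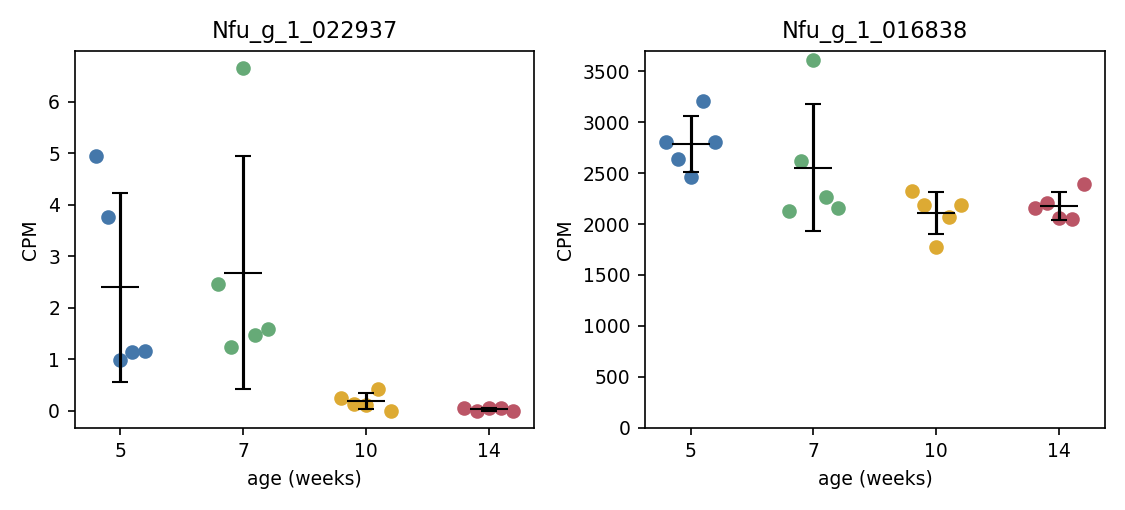
CPM in each library (points) by age in weeks for the member with the largest fall from 7 to 10 weeks (left) and the member with the most reads (right), with mean and SD over 5 libraries as bars. In the left gene every library of 10 and 14 weeks is at 0.419 CPM or less, and every library of 5 and 7 weeks at 0.975 CPM or more. In the right gene the ages from 7 weeks on overlap, and 5 weeks overlaps with 7 weeks.

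Below the first place, the next 9 members by size of fall had steps of -1.64 to -1.12 on the log2 scale between 7 and 10 weeks. The second averaged 2.76 ± 0.97 CPM at 10 weeks and 10.4 ± 5.37 CPM at 7 weeks (SD, n = 5 each), with 1.62 to 3.85 and 5.19 to 16.3 CPM in single libraries. The third averaged 5.75 ± 2.52 CPM at 10 weeks and 17.2 ± 3.90 CPM at 7 weeks, and the fourth 8.74 ± 2.90 CPM at 10 weeks and 25.2 ± 7.80 CPM at 7 weeks. Every 10-week library lay below every 7-week library in 8 of these 9 members, beside 3.38% of all genes of at least 1 CPM. These members were picked by that fall, which favours such separation. Among the 9 members that follow in number of reads, the steps were smaller, at -0.47 to -0.22. The second by reads averaged 838 CPM at 10 weeks, with 706 to 937 in single libraries, and 1112 ± 260 CPM at 7 weeks, and the third 835 ± 68.8 CPM at 10 weeks and 1046 ± 114 CPM at 7 weeks. Only 3 of these 9 separated the libraries of 10 and 7 weeks, beside the same 3.38% of all genes.

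The rule asked for separation of 14 from 5 weeks, which 3.63% of all genes of at least 1 CPM showed in this direction. Between 10 and 7 weeks the rule asked for the largest of the 3 falls in the means, and not for separation of the libraries. For the remaining pairs of ages it did not fix the order of the means. Its conditions still favour lower values at 10 than at 5 weeks and at 14 than at 7 weeks. The counts for these pairs and for 10 against 7 weeks therefore only describe the list. The number of members whose libraries did not overlap is given beside the share of all 17994 genes. Every 10-week library lay below every 5-week library in 317 of 418 members (5.92% of all genes). Every 10-week library lay below every 7-week library in 136 members (3.38% of all genes), and every 14-week library below every 7-week library in 113 (1.84% of all genes). For 7 against 5 weeks this held in 8 members (1.33% of all genes), and for 14 against 10 weeks in 1 (1.01% of all genes). The reverse order was seen in 1 member for 7 against 5 weeks and in 4 for 14 against 10 weeks. Over all genes the reverse was seen in 55 and 273. Without 7-week replicate 3, which was tried after the data had been seen, the lower order held in 157 members for 10 against 7 weeks. It held in 79 members for 7 against 5 weeks, and the shares of all genes were 5.86% and 4.19%.

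In the fit of all 19474 genes that had enough counts, edgeR's quasi-likelihood test called members lower in the comparisons that span the step. All 418 members were tested. For 10 against 7 weeks, 109 members were called lower (adjusted p below 0.05, beside 1.61% of all genes), with a median log2 fold change of -0.60. For 14 against 5 weeks, 121 were called (1.47% of all genes), with a median of -0.74. For 10 against 5 weeks it was 222 (3.85% of all genes, median -0.60), and for 14 against 7 weeks 90 (1.04% of all genes, median -0.57). Of the members called, 18 lay beyond 2-fold for 10 against 7 weeks, 29 for 14 against 5 weeks, 52 for 10 against 5 weeks and 10 for 14 against 7 weeks. By read number, 23 of 92 members under 10 CPM, 70 of 244 of 10 to 100 CPM and 16 of 82 above 100 CPM were called for 10 against 7 weeks. Since the rule used these contrasts, the counts show how many members also pass a test across all genes, and no more.

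Outside the step few members, and few of all genes, were called. Between 7 and 5 weeks 0 members were called in either direction by edgeR, beside 0.0154% of all genes called lower and 3 of 19474 called higher. At an unadjusted edgeR p below 0.05 there were 16 lower and 9 higher members, beside 1587 lower and 725 higher of all 19474 genes. DESeq2 called 0 members lower and 1 higher there, beside 199 of all 19474 genes called lower and 105 (0.539%) called higher. There limma-voom called 0 members. Without 7-week replicate 3 edgeR called 2 members lower for 7 against 5 weeks, beside 138 of 19588 genes. At an unadjusted edgeR p below 0.05 there were then 112 lower and 5 higher members, beside 2452 lower and 1801 higher genes. The median fitted log2 fold change of the members was -0.176 without that library and -0.055 with it. Over all genes it was -0.043 and -0.003. Between 14 and 10 weeks 0 members were called by edgeR, DESeq2 or limma-voom. Of all 19474 genes, edgeR called 0 lower and 19 higher, DESeq2 10 lower and 84 higher, and limma-voom 0 in either direction. At an unadjusted p below 0.05 in edgeR there were 4 lower and 1 higher member, beside 379 lower and 805 higher of all genes.

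These counts moved with single libraries, and so did the number of all genes called lower. For 10 against 7 weeks, leaving out 7-week replicate 2 gave 41 calls in place of 109, and leaving out 7-week replicate 4 gave 51. Each of 10-week replicates 1 to 4, when left out, gave 39, 36, 25 and 42 calls in that order. Over all genes the 313 called lower became 129 and 126 without these 7-week replicates, and 101, 88, 61 and 121 without these 10-week replicates. For 14 against 5 weeks the 121 calls became 58 when 5-week replicate 1 was dropped and 32 when 5-week replicate 4 was. Dropping 7-week replicate 3 raised the number to 297, and dropping 14-week replicate 1, 3, 4 or 5 gave 26, 35, 25 or 53. Over all genes the 287 called lower became 195 and 74, then 767, then 51, 70, 50 and 118. The 222 for 10 against 5 weeks turned into 144 or 143 if 5-week replicate 1 or 4 was missing, and into 349 if 7-week replicate 3 was. A missing 10-week replicate 1, 2, 3 or 4 left 119, 132, 74 or 113. All genes called lower numbered 749, against 490 or 481, 1642, and 317, 337, 182 or 318 in these fits. The 90 for 14 against 7 weeks were 31 or 53 if 7-week replicate 2 or 4 was missing, and 40, 45, 34 or 58 for 14-week replicate 1, 3, 4 or 5. The 202 of all genes were then 56 or 104, and 83, 90, 71 or 144. Whichever library was left out, 24 of the 109, 24 of the 121, 73 of the 222 and 29 of the 90 were called. This was counted for members only, so it cannot be set against all genes.

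To see the step in libraries that had no part in the choice, 1 library of each of 2 ages was left out, the rule was applied to the other 18, and the difference of the left-out pair was taken over the new list. This was added after seeing the data. For 10 minus 7 weeks the lists held 290 to 481 genes, and their median difference was below 0 in 24 of the 25 pairs, with a median over pairs of -0.33 and a range of -0.82 to 0.00. Over all genes of at least 1 CPM the same 25 pairs gave -0.03 to 0.06, with 8 of 25 below 0. For 14 minus 5 weeks it was below 0 in 25 of 25 pairs, with a median of -0.33 and a range of -0.45 to -0.14, against -0.16 to 0.10 over all genes, with 7 of 25 below 0. The members chosen on all libraries had -0.34 and -0.42 in the same pairs. Each library enters 5 pairs, so the 25 values are not independent and were not tested. With a single library left out, its median level over the list chosen by the other 19 was 0.14 to 0.29 for the libraries of 5 weeks, -0.08 to 0.45 for 7 weeks, -0.36 to -0.06 for 10 weeks and -0.24 to -0.01 for 14 weeks.

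The other steps were smaller in such pairs and went both ways. For 7 minus 5 weeks the median over pairs was -0.08, with a range of -0.36 to 0.23 and 19 of 25 below 0. Over all genes these pairs gave -0.22 to 0.09, with 16 of 25 below 0. For 14 minus 10 weeks it was 0.09, with a range of -0.16 to 0.30 and 7 of 25 below 0, against -0.02 to 0.06 and 3 of 25 over all genes. Among pairs with 7-week replicate 3 the differences were -0.82 to -0.46 for 10 minus 7 weeks and 0.07 to 0.23 for 7 minus 5 weeks. Without these pairs the median for 10 minus 7 weeks was -0.29, with 19 of 20 below 0, and that for 7 minus 5 weeks was -0.12, with 19 of 20 below 0. The lists for these 20 pairs were still chosen with 7-week replicate 3 among the libraries, so its part in the choice is not removed. All genes were not counted over these 20 pairs alone.

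**Figure D4:**
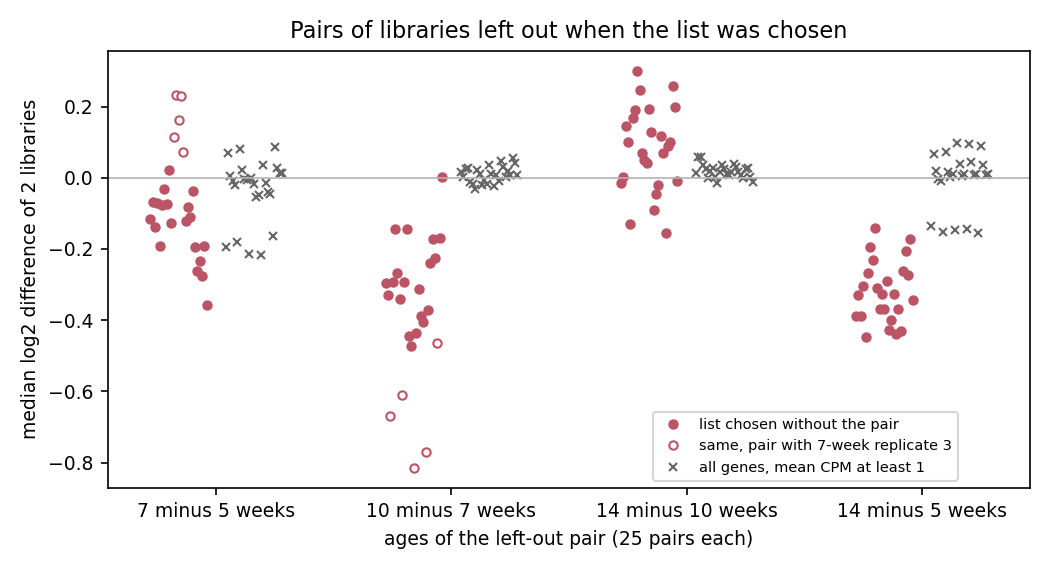
Median log2 difference of a left-out pair of libraries over the list chosen without it (circles, open where the pair holds 7-week replicate 3) and over all genes of at least 1 CPM (crosses), for 25 pairs in each of 4 comparisons of ages. For 10 minus 7 weeks the circles run from -0.82 to 0.00 and the crosses from -0.03 to 0.06. For 14 minus 5 weeks all 25 circles lie below 0.

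The place of the largest step depended on 7-week replicate 3 for many genes. It was the highest of all 20 libraries in 217 members, against 161 for the 5 libraries of 5 weeks together. Without it the rule gave 319 genes, of which 298 were members. Another 119 members then had their largest fall between 5 and 7 weeks. The median step of the 418 members became -0.32 between 7 and 10 weeks and -0.19 between 5 and 7 weeks. Leaving out any other single library kept 386 to 417 of the 418 members, and 270 members (64.6%) met the rule whichever library was left out. With TMM-scaled counts the rule gave 396 genes, of which 305 were members.

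The running numbers in the sample titles cross the ages of 7 and 10 weeks and otherwise rise with age. The 5-week libraries carry numbers 20 to 35 and the 14-week libraries 66 to 73. The 7-week libraries carry numbers 48, 53, 55, 64 and 65 and the 10-week libraries 57, 58, 59, 60 and 62, and the labels do not say what the numbers stand for. In the order of their numbers, the 7-week libraries had member medians of 0.12, 0.17, 0.51, 0.11 and -0.05. The one numbered 65 lay next to the highest 10-week library, at -0.08. The part of the numbers in the step was not tested.

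Members varied together within the ages of 7, 10 and 14 weeks, and at 5 weeks hardly more than all genes did. After each age mean had been taken out, the mean Pearson r between pairs of members over the 20 libraries was 0.306, against 0.0284 between all genes of at least 1 CPM, 0.182 in the list with the largest fall between 5 and 7 weeks and 0.122 in that with the largest fall between 10 and 14 weeks. These are correlations across libraries that share depth and preparation, given as a description. The members were chosen on these same libraries, which can itself raise r among them, and by how much was not tested. Without 7-week replicate 3 the members had 0.256, all genes 0.0272, and the lists with the largest fall between 5 and 7 and between 10 and 14 weeks 0.202 and 0.127. By age the mean r over 5 libraries was 0.0640 (5 weeks), 0.385 (7 weeks), 0.339 (10 weeks) and 0.212 (14 weeks). Over all genes it was 0.0526 (5 weeks), 0.00519 (7 weeks), 0.00579 (10 weeks) and 0.000361 (14 weeks). For 7 weeks without replicate 3, members had 0.347 and all genes 0.0100. The median SD of a member within an age was 0.14 (5 weeks), 0.27 (7 weeks), 0.16 (10 weeks) and 0.13 (14 weeks) on the log2 scale. Over all genes it was 0.26 (5 weeks), 0.29 (7 weeks), 0.17 (10 weeks) and 0.20 (14 weeks). Without replicate 3 the members' 7-week value was 0.13 in place of 0.27. A gene with little spread at 5 and 14 weeks meets the rule more easily.

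Grouping the members by these within-age correlations, a step chosen after seeing the data and left without a test, gave 3 subsets of at least 40 genes. The largest, with 188 genes, held 51.5% of the members' counts and followed 7-week replicate 3. Its median level, relative to each gene's mean over ages, was 0.64 there, and -0.07 to 0.10 in the other 7-week libraries. At 10 weeks it was -0.34 to -0.13, and at 14 weeks -0.28 to -0.07. That library was the highest of the 20 in 168 of the 188. Without it, 87 of the 188 no longer met the rule, and the median steps of the subset were -0.21 from 5 to 7 weeks and -0.25 from 7 to 10 weeks.

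The second subset, of 55 genes, differed strongly among the libraries of 10 and 14 weeks. Its median level was 0.48 to 0.65 in the 5 libraries of 5 weeks. At 7 weeks it was 0.12, 0.50, 0.42, 0.31 and -0.10 in replicates 1 to 5. In 10-week replicates 1 to 5 it was -0.46, -0.11, -0.83, -1.13 and -0.05, and in 14-week replicates 1 to 5 it was -0.55, 0.17, -0.17, -0.84 and -0.25. Thus 10-week replicates 3 and 4 and 14-week replicate 4 stood low, while 10-week replicate 5 and 14-week replicate 2 stood above the lowest 7-week library. The subsets were formed by these correlations, so a high mean r within a subset is built in. Without 7-week replicate 3 it was 0.732 in the 55 genes, 0.326 in the first subset and 0.567 in the third. With that library it was 0.714, 0.648 and 0.669 in the same order. The 55 genes had the larger steps, with a median of -0.77 between 7 and 10 weeks and -0.97 between 14 and 5 weeks. They also scattered more within ages, with a median SD of 0.39, against 0.19 in the first subset and 0.22 in the third. The rule asks a larger difference of genes that scatter more. The median level of the 55 was low, at 3.43 CPM per kilobase. Of the 55, 48 were called lower for 10 against 5 weeks (3.85% of all genes), 32 for 14 against 5 weeks (1.47%), 13 for 10 against 7 weeks (1.61%) and 9 for 14 against 7 weeks (1.04%). In the same order, 92, 35, 49 and 35 of the 188 genes of the first subset were called, and 22, 5, 9 and 3 of the 49 genes of the third. Of places 2 to 10 by size of fall, 6 belong to this subset.

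The third subset, of 49 genes, had a median gene length of 1128 bases and a median of 29.1 CPM per kilobase. Its median level stood at 0.55 in 7-week replicate 3 and at 0.41 in 5-week replicate 4. In 10-week replicate 5 it was 0.10, against -0.38 to -0.19 in the other 10-week libraries. The remaining 126 members fell into 29 subsets of 1 to 22 genes.

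**Figure D5:**
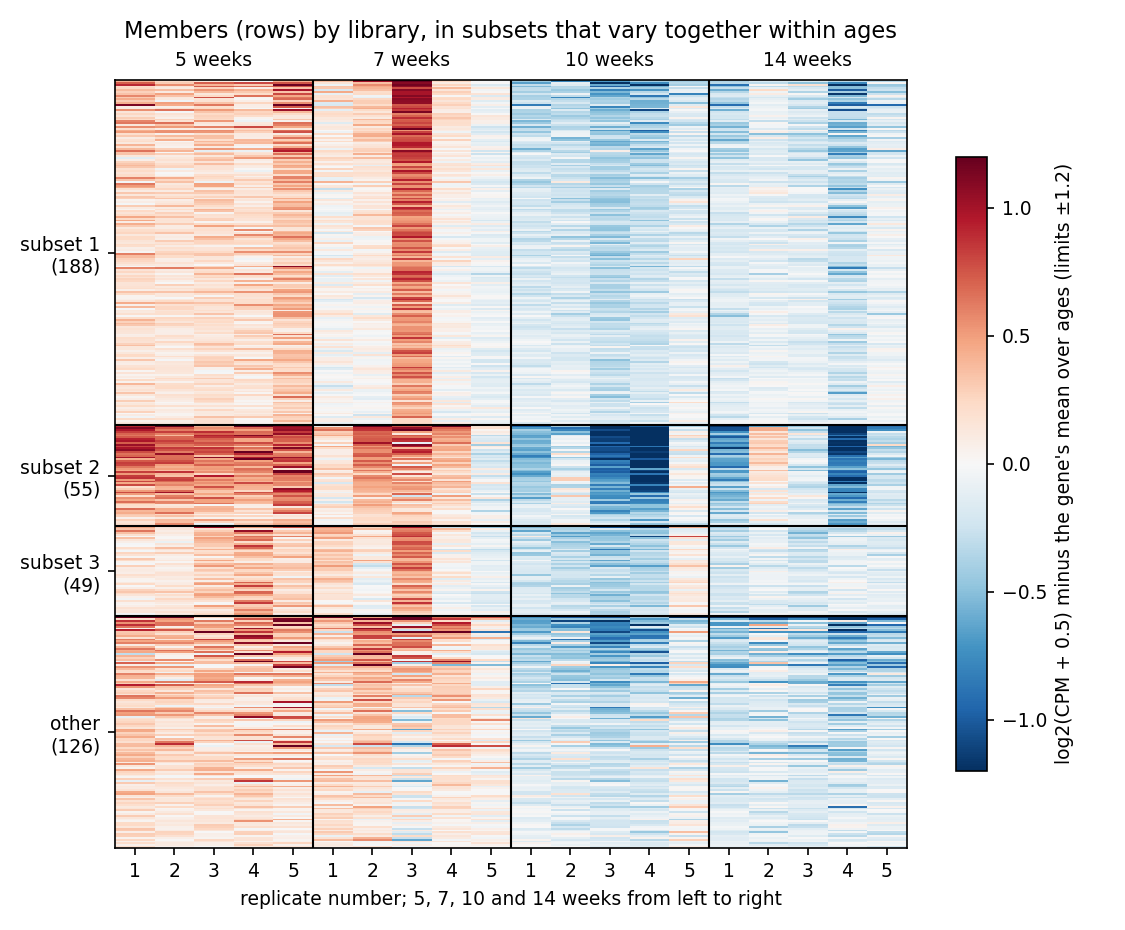
Level of each member (rows, sorted by subset and by the step from 7 to 10 weeks) in each library (columns, by age and replicate), as log2(CPM + 0.5) minus the gene's mean over the 4 ages with colours limited at ±1.2. The median of subset 1 (188 genes) is highest in 7-week replicate 3. Among the 10-week libraries the median of subset 2 (55 genes) runs from -1.13 in replicate 4 to -0.05 in replicate 5.

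Gene length, which the rule did not use, could be solved for all 418 members from the deposited values. Members had a median length of 2382 bases (quartiles 1260 and 3569), against 2779 bases (quartiles 1389 and 4814) over the 17994 genes of at least 1 CPM. Genes of 4000 bases or more made up 19.4% of the members and 33.1% of all these genes, and those of 2000 to 4000 bases 40.4% and 30.2%. The list with the largest fall between 5 and 7 weeks had a median of 2707 bases, and that with the largest fall between 10 and 14 weeks 4743 bases. The median step from 7 to 10 weeks was -0.42 in the 86 members under 1000 bases and -0.33 in the 81 of at least 4000 bases. Per kilobase, members stood at a median of 13.4 CPM and all genes at 8.35 CPM. Lengths in multiples of 3 were 52.4% among members and 52.2% among all genes. None of these differences was tested.

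Some members stood next to each other in the count table. Adjacent rows held a pair of members 13 times, and consecutive identifier numbers 8 times. How many such pairs a list of other genes would hold was not counted. In the 13 pairs of adjacent rows the within-age r ran from -0.432 to 0.820, with a median of 0.503. What the order of rows and the numbers follow is not given in the sources used here.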

How the data were processed

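The authors deposited raw read counts per gene identifier for 20 libraries, and RPKM values for the same identifiers. Per the submitters' processing notes, the tools were featureCounts 1.4.6-p4, STAR 2.4.1d and CASAVA 1.8.2. For genome build, annotation and strand setting nothing is given in the sources used here, so overlapping, antisense and near-identical genes may share reads. Libraries were made with a TruSeq RNA v2 kit from total RNA, per the labels' protocols. Groups are the ages in the labels, and replicate numbers follow accession order and pair nothing.

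The deposited RPKM values equal counts over gene length and over totals that rotate through 25 values instead of following the libraries. With the rotation 99.99% of values came back (tolerance 0.0011), and 4.43% did so when the total was that of the library itself. RPKM therefore served only to solve gene lengths. Levels are CPM by column sum, with a pseudocount of 0.5 on the log2 scale, and CPM per kilobase where genes are compared.

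Counts were tested in R 4.3.3 with edgeR 4.0.16 (TMM, filterByExpr, robust quasi-likelihood fit, 1 mean per age, all 20 libraries, Benjamini-Hochberg adjustment over 19474 genes). The SE is the size of the log2 fold change divided by the root of F. The code was checked on data with known answers. Alternatives were DESeq2 1.42.0, limma-voom (limma 3.58.1), other filters and scalings, fits of only the ages compared, and libraries left out. Libraries of one age differed by a chi-square per degree of freedom of at least 8.67, so none was counted as a duplicate. Subsets joined members by average linkage at a within-age correlation distance of 0.5 (Python 3.11.15, scipy 1.17.1).

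The members, lists and alternatives were chosen with earlier results of these data known. Genes were to be named by symbol where symbols could be matched. As none could, only the members with the largest fall from 7 to 10 weeks and with the highest mean CPM are printed, with the next 9 of both orders by place. Gene lists and cell type markers by symbol could not be used.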

Additional observations from a re-analysis of the deposited data

Results flagged for a closer look

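In 28 groups of 5 libraries (the share of counts in the members, their median level, the level of the 3 subsets and the CPM of both printed genes, at each of 4 ages), 2 held a library that stood apart from the other 4 by more than 0.71 of the whole range. Chance flags about 1 in 20 groups that were not chosen by their values. The members, subsets and printed genes were chosen by values of these same libraries, so that rate does not hold here. Both flagged libraries were 7-week replicate 3. The median level of the subset of 188 genes was 0.64 there, with a gap of 0.763 of the range to the next library. Nfu_g_1_022937 had 6.66 CPM there, with a gap of 0.775 of the range.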

How the results depend on the processing

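The number of members was within 1.5 times 418 under 7 alternatives of scaling, pseudocount, minimum CPM and median per age (368 to 424) and with single libraries left out (319 to 603). The genes themselves changed more. Of the 418, 305 were kept with TMM scaling, 306 with DESeq2 size factors and 341 with the median per age. With other pseudocounts or minimum CPM, 376 to 418 were kept. Without the 3 libraries of lowest correlation the rule gave 703 genes, of which 321 were members. The median step from 7 to 10 weeks ran from -0.44 to -0.32 over all its alternatives, and the within-age correlation from 0.256 to 0.321. The median length was 2382 bases also among genes with an RPKM sum above 1.

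Members called lower between 10 and 7 weeks numbered 224 by DESeq2, 13 in a fit of these 2 ages alone and 25 to 152 with single libraries left out. For 14 against 5 weeks DESeq2 called 222, and 260 were called without the 3 libraries of lowest correlation, with 25 to 297 when single libraries were left out. For 10 against 5 weeks that range was 74 to 349. For 14 against 7 weeks DESeq2 called 160, 13 were called in a fit of these 2 ages alone and 143 without the 3 libraries, with 31 to 112 for single libraries. For 7 against 5 weeks DESeq2 called 1 member, which was higher, beside 199 lower and 105 higher of 19474 genes. Without the 3 libraries 2 members were called, both lower, beside 63 lower and 30 higher of 19567 genes, and with single libraries left out 0 to 2. All genes called lower by DESeq2 numbered 767 for 10 against 7, 707 for 14 against 5 and 501 for 14 against 7 weeks. Without the 3 libraries they numbered 765 for 14 against 5 and 919 for 14 against 7 weeks. In fits of 2 ages alone they numbered 37 for 10 against 7 and 21 for 14 against 7 weeks. The cause of these differences was not tested. Nfu_g_1_022937 lost its call for 10 against 7 weeks in a fit of the 2 ages alone (edgeR adjusted p = 0.051).

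No paired analysis was possible because the labels give no replicate numbers that link libraries of different ages. Depth limits the members near 1 CPM most, where a library holds few reads of a gene.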
